A study of Caenorhabditis elegans with 30 samples.

Results

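The clec genes of Caenorhabditis elegans encode C-type lectin-domain proteins, and their transcripts were followed in whole worms across temperature, lithium and odour training. Members were all protein-coding genes whose symbol in the annotation is clec- and a number. This gave 240 genes, of 46904 gene rows in the lithium experiment and 46778 in the ice experiment, and 237 symbols, since clec-15, clec-209 and clec-249 each name 2 genes. A member was reported where its mean over the libraries of an experiment was at least 1 CPM (counts per 1000000 of the TMM-adjusted library size). That held for 67 members in the lithium experiment and 89 in the ice experiment, with 63 in both. The symbol is the annotation's, and the domain itself was not checked here.

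All worms were N2, the wild type strain, grown on E. coli OP50 and extracted whole as a population. The lithium experiment had 4 groups of 3 libraries: untrained worms spent a night on 15 mM LiCl or on plain NGM agar, each at 15 C, which makes worms cold tolerant, or at 20 C, where they stay cold sensitive. The ice experiment had 6 groups of 3 libraries: worms conditioned with the odorant butanone, or naive ones, whose cultivation ended with 2 hours at 20 C after a night at 15 C (shifted worms), with that night at 15 C alone, or with 20 C only. All worms of the ice experiment spent 2 hours on ice before extraction, so no library there lacks the cold shock. Libraries on ice carry letters, and each letter names a conditioned and a naive library of 1 cultivation regime, except H, which appears both at 15 C and in shifted worms. Replicates on ice are described by the series as biological, and for the lithium replicates nothing states separate cultures, so the p-values there measure only the spread between these samples.

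C-type lectin domains bind sugars or other ligands, in many family members with the help of calcium, and most worm members carry a signal for secretion. The family is greatly enlarged in nematodes, and many of its genes are expressed in the intestine and change during infection, which has made them common readouts of the pathogen response. A few have been tied to defence in C. elegans, clec-39 and clec-49 to that against Serratia marcescens, and clec-41 and clec-42 to the response to Bacillus thuringiensis. For most of the members named here no function is known well enough to state.

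The members lie on all chromosomes, with 86 on V, 53 on IV, 48 on II, 36 on I, 14 on III and 3 on X (WBcel235, the ce11 assembly). Neighbours closer than 10000 bases form 47 runs that hold 155 members, and 85 members stand alone. The largest run has 13 members (chromosome V, 16839121 to 16869840, clec-40 to clec-33), of which 0 were reported in the lithium experiment and 3 on ice. By contrast, 4 of the 5 members of the run clec-62 to clec-66 (chromosome II, 12893062 to 12906644) were reported in both experiments. Chromosome I held 36 members, of which 7 were reported in either experiment, and chromosome IV held 53, of which 28 were. Counts were 0 in every library for 49 members in the lithium experiment, for 9 on ice and for 7 in both. Neither clec-39 nor clec-42 reached 1 CPM in either experiment.

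Reads of the clec genes came mainly from a few members. They made up 0.243 to 0.628% of all counts in a lithium-experiment library and 0.643 to 1.49% in an ice-experiment library, and the 3 highest members held 49.1% and 54.1% of the clec signal in the lithium and ice experiments. Per kilobase of exon, clec-63 had the highest mean in the lithium experiment with 860 CPM per kilobase, followed by clec-87 with 763 and clec-150 with 323. On ice the order began with clec-87 at 3843 CPM per kilobase, clec-88 at 1099 and clec-91 at 1042. The median over the reported members was 10.5 CPM per kilobase in the lithium experiment and 9.75 on ice. At the edge of the rule, clec-125 was the lowest reported member of the lithium experiment with a mean of 1.10 CPM and clec-2 the highest one left out with 0.951. On ice clec-17 was just inside with 1.02 CPM and clec-36 just outside with 0.970. The 2 experiments used different library kits, so levels are not compared between them.

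**Figure D1:**
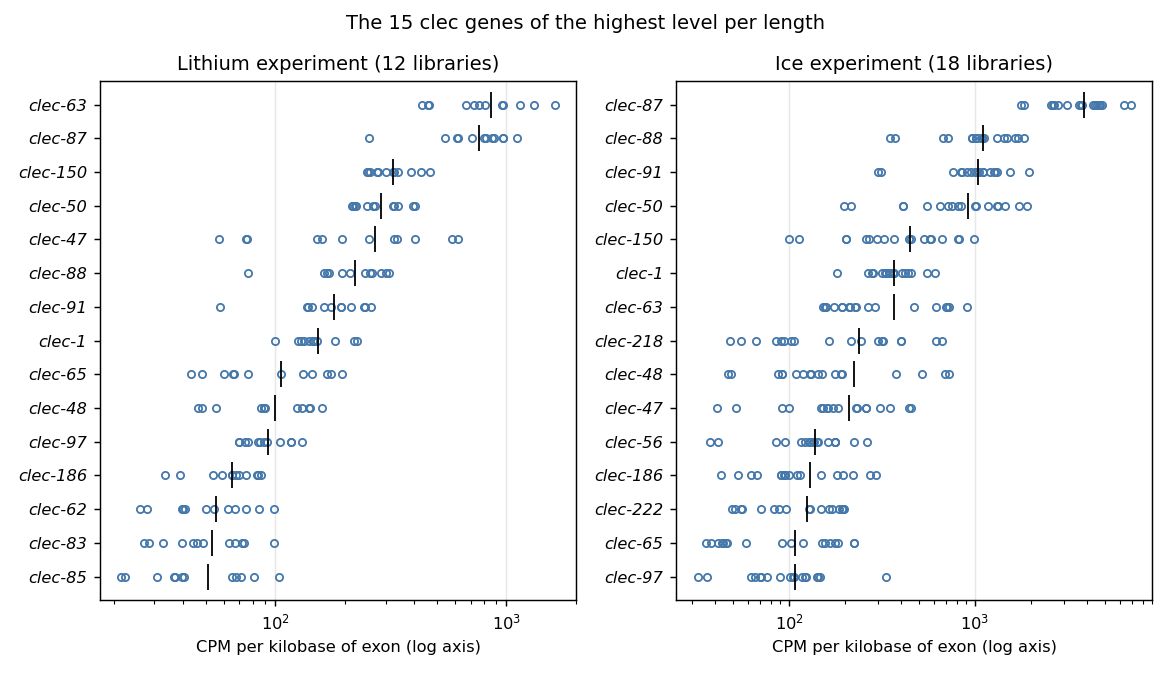
Each circle is 1 library's level in CPM per kilobase of exon (log axis) for the 15 members of the highest mean level per length in the lithium experiment (left) and the ice experiment (right), and the black tick is the mean over libraries. In the ice experiment clec-87 stands at a mean of 3843, above clec-88 at 1099.

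A lithium-experiment library held 10111055 to 27794834 counts and 115 to 146 members with a count, and an ice-experiment library 9873554 to 30054357 counts and 110 to 187 such members. Replicate 2 of the 20 C plain-agar group stood apart: 14 germline and oocyte markers together had 3883 CPM there and 7799 and 8652 CPM in replicates 1 and 3. Of the ice experiment, sums over the conditioned and naive library of each letter were used for temperature. The sums of 15 C letter B, 15 C letter H and shifted letter H stood apart: 10 muscle markers together had 28523, 20739 and 24331 CPM there and 2153 to 11639 CPM in the other 6 sums. The 15 C and shifted sums of letter H deviated from their groups together (correlation of the deviations over genes 0.618). For the called members and the ice comparisons, values without these libraries are given beside the results. All 67 reported members of the lithium experiment and all 89 of the ice experiment passed the filter on low counts, together with 12 members below 1 CPM in the lithium fit, 36 in the fit of letter sums and 27 in the fit for training.

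With lithium at 20 C 5 of the 79 members tested were called higher, clec-3 among them, and 9 lower, with clec-5 among them. Both clec-3 and clec-5 had been picked for naming because lithium changed them in earlier results of these data. Over all 12392 genes tested 12.2% were called, 5.91% higher and 6.33% lower, where called means an adjusted p under 0.05 in edgeR's quasi-likelihood test with Benjamini-Hochberg adjustment over all genes. Of the members 17.7% were called. Their median log2 fold change was -0.26, with 53 of 79 negative, beside a median of -0.07 over all genes. RNA came from whole worms, so fewer cells of a type and less RNA per cell cannot be told apart in any of these values.

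Among the members called higher, clec-3 (chromosome II, 3017468 to 3019907, 47 exon bases shared with C41H7.2 on the opposite strand) had the largest fold change. It stood at 28.2, 17.97 and 11.6 CPM in the lithium libraries and at 7.04, 6.67 and 4.78 CPM in the plain-agar libraries at 20 C. All 3 lithium libraries were above all 3 plain-agar ones, with the lowest lithium value at 11.6. The log2 fold change was 1.64 (SE 0.41, adjusted p = 0.030 by edgeR), and the call was lost with any 1 library left out except plain-agar replicate 1 (adjusted p 0.064 to 0.10 by edgeR). At 15 C clec-3 had 34.7, 40.97 and 27.2 CPM with lithium and 9.08, 4.73 and 2.88 CPM without it. Here too the groups did not overlap, and the log2 fold change was 2.62 (SE 0.42, adjusted p = 0.022 by edgeR). The lithium response of clec-3 at 15 C minus that at 20 C was 0.97 on the log2 scale (SE 0.56, adjusted p = 0.51), so a difference between the temperatures was not called.

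A second member called higher at both temperatures was clec-190 (chromosome IV, 15124931 to 15126121). Its levels at 20 C were 30.9, 38.6 and 51.8 CPM with lithium and 13.7, 19.2 and 15.4 CPM without. At 15 C they were 25.3, 37.5 and 40.7 CPM with lithium and 13.6, 9.87 and 13.6 CPM without. Every lithium library exceeded every plain-agar library of its temperature. The log2 fold changes were 1.33 at 20 C (SE 0.25, adjusted p = 0.019 by edgeR) and 1.48 at 15 C (SE 0.26, adjusted p = 0.031 by edgeR).

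The remaining members called higher at 20 C were clec-87, clec-88 and clec-49. The gene clec-87 (chromosome I, 10184462 to 10185520, 138 exon bases shared with iars-2 on the opposite strand) had 851, 927 and 1072 CPM with lithium and 588, 244 and 522 CPM without. The plain-agar libraries were all lower, with replicate 2 the lowest of the 6. Its log2 fold change was 1.07 (SE 0.26, adjusted p = 0.029 by edgeR), and 0.78 without that replicate (adjusted p = 0.028 by edgeR). The gene clec-88 averaged 318 ± 60.9 CPM with lithium and 164 ± 62.3 CPM without (SD, n = 3 each), which is 0.95 on the log2 scale (edgeR adjusted p = 0.040). Without plain-agar replicate 2, at 92.4 CPM, its log2 fold change was 0.67 and no longer called (adjusted p = 0.065). The gene clec-91 had 174 ± 41.9 CPM with lithium and 94.9 ± 39.5 CPM without (SD, n = 3 each) and was not called (log2 fold change 0.88, edgeR adjusted p = 0.066). The defence gene clec-49 stood at 35.3, 48.0 and 48.5 CPM with lithium and 32.1, 26.8 and 27.5 CPM without, with no overlap. Its log2 fold change was 0.61 (SE 0.18, adjusted p = 0.042 by edgeR), and at 15 C it was 0.89 with an adjusted p of 0.056.

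Among the members lowered by lithium at 20 C, clec-5 (chromosome III, 4881888 to 4883606) had the smallest p-value of all members. It had 18.5, 15.5 and 19.7 CPM with lithium and 70.01, 129 and 64.3 CPM without. The highest lithium library stood below the lowest plain-agar one, and plain-agar replicate 2 was the highest of all. The log2 fold change was -2.29 (SE 0.27, adjusted p = 0.0042 by edgeR), and it was called with each of the 6 libraries left out (range -2.49 to -1.91, highest adjusted p = 0.038 by edgeR). At 15 C clec-5 had 10.8, 7.60 and 8.74 CPM with lithium and 25.3, 29.9 and 21.3 CPM without, again with no overlap. There the log2 fold change was -1.48 (SE 0.27, adjusted p = 0.034 by edgeR).

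Other members called lower with lithium at 20 C were clec-10, clec-218, clec-8, clec-178, clec-57, clec-54, clec-78 and clec-180. The gene clec-10 (chromosome II, 402678 to 404180) had 11.9, 7.99 and 15.2 CPM with lithium at 20 C and 36.6, 25.6 and 34.4 CPM on plain agar at 20 C. The groups were clearly apart, and the log2 fold change was -1.46 (SE 0.23, adjusted p = 0.015 by edgeR). At 15 C its levels were 30.2, 34.4 and 35.4 CPM with lithium and 39.7, 37.1 and 38.1 CPM without. All 3 lithium libraries were lower there too, by a smaller margin. The lithium response at 15 C minus that at 20 C was 1.26 on the log2 scale, with an unadjusted p of 0.0017 and an adjusted p of 0.48, so it was not called.

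The gene clec-218 (chromosome V, 8307942 to 8310766) had 6.52, 12.8 and 12.45 CPM with lithium and 40.4, 84.4 and 36.1 CPM without at 20 C. Plain-agar replicate 2 was again the highest library, and no lithium library reached the plain-agar range. The log2 fold change was -2.34 (SE 0.43, adjusted p = 0.018 by edgeR), and it was -1.85 without it (adjusted p = 0.028 by edgeR). Elsewhere on chromosome V, clec-57 and clec-54 belong to a run of 5 members (14469231 to 14482317), and clec-57 had 2.02, 1.57 and 5.62 CPM with lithium and 27.7, 5.11 and 21.8 CPM without. For clec-57 the groups overlapped through plain-agar replicate 2. For clec-54 they did not, with 8.998, 9.63 and 11.8 CPM with lithium and 19.4, 16.5 and 15.7 CPM without. The log2 fold changes were -2.57 for clec-57 (adjusted p = 0.031) and -0.76 for clec-54 (adjusted p = 0.038), both by edgeR. For clec-8 and clec-178 they were -1.20 and -1.67, with no overlap between the groups of either.

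Both clec-78 and clec-180 rested on 1 library. The gene clec-78 (chromosome IV, 3989102 to 4014235) had 1.78, 1.07 and 0.356 CPM with lithium and 3.55, 77.2 and 10.9 CPM without. Nearly all of the plain-agar signal was in replicate 2. Its log2 fold change was -4.83 (SE 1.16, adjusted p = 0.028 by edgeR), and -2.76 without that replicate (adjusted p = 0.095 by edgeR). The gene clec-180 had 0.0776, 0.285 and 0.0711 CPM with lithium and 0.328, 10.1 and 1.21 CPM without, and its log2 fold change of -4.65 became -2.35 without replicate 2 (adjusted p = 0.16). The gene clec-67, induced by Pseudomonas infection, had 27.7, 19.4 and 11.8 CPM with lithium and 3.55, 15.0 and 3.24 CPM without. It was not called (log2 fold change 1.44, edgeR adjusted p = 0.081), but it was without plain-agar replicate 2 (2.53, edgeR adjusted p = 0.0077). Among the other members with a known role, clec-85 had 102 ± 12.4 CPM with lithium and 102 ± 45.8 CPM without, and clec-4 had 11.5 ± 0.774 CPM with lithium and 18.5 ± 5.64 CPM without (SD, n = 3 each). Neither was called, nor were clec-41, clec-149, clec-63 and clec-150.

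**Figure D2:**
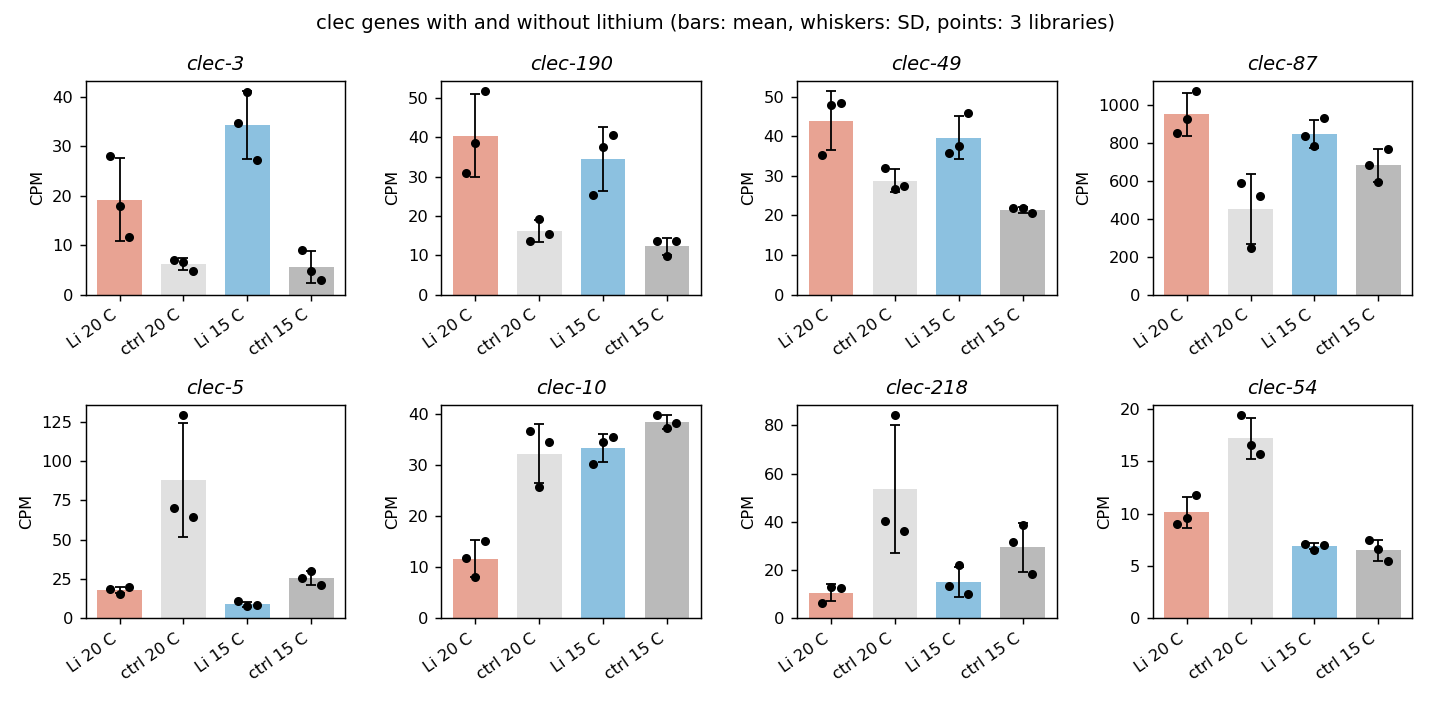
CPM of 8 members in the 12 lithium-experiment libraries, with the lithium group left of the plain-agar group at each temperature (Li, lithium; ctrl, plain agar); bars are means, whiskers SD and points the 3 libraries. In clec-3 and clec-190 the lithium libraries lie above the plain-agar ones at both temperatures, and in clec-5 below them.

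Without plain-agar replicate 2 at 20 C, 9 members were called in the 20 C comparison, 7 of them among the 14. Of the members followed in this fit, clec-190, clec-87, clec-218, clec-5, clec-10 and clec-8 were still called, and clec-3, clec-88, clec-49, clec-78, clec-180, clec-178 and clec-54 were not. The number called was 2 without lithium replicate 1, 1 without lithium replicate 2 and 2 without lithium replicate 3. For none of these fits, nor for that without plain-agar replicate 2, is the share of all genes called given. The changed counts are therefore not read as particular to the members. Markers of other tissues moved in the same comparison. Of 11 cuticle and epidermis markers tested 9 were called lower with lithium (median log2 fold change -4.33), and their summed level was 593 to 934 CPM with lithium and 567 to 1195 CPM without, with 2 of 14 markers at 0 in each lithium library. Of 14 germline and oocyte markers 8 were called higher, with a summed level of 12315 to 13714 CPM with lithium and 3883 to 8652 CPM without. Among 13 intestine markers 1, pept-1, was called lower and none higher. Of 3 coelomocyte markers tested, cup-4 was called lower and 1 had a positive log2 fold change (median -0.60). Of 4 pharynx markers tested, myo-2 was called lower and 0 were positive (median -1.94). The sperm marker spe-41 was called higher. Of 6 sperm markers tested, spe-41 was the only 1 with a positive log2 fold change, and their median was -1.02. Whether these shifts have a part in the clec values was not tested.

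With lithium at 15 C 3 of 79 members were called, where 0.387% of all genes were (0.161% higher and 0.226% lower): clec-3 and clec-190 higher, and clec-5 lower. All 3 had been called in the same direction at 20 C, with other libraries on both sides of the comparison. Both sets of calls came from 1 fit with a shared estimate of each gene's spread, so they are not fully independent. The median over the members was 0.25 (49 of 79 positive), beside 0.07 over all genes. Among the members not called, clec-47 had 82.9, 170 and 101 CPM with lithium and 39.4, 29.7 and 38.7 CPM without. These groups did not overlap, and the log2 fold change of 1.71 had an adjusted p of 0.068 by edgeR. The gene clec-41 had 121 ± 40.2 CPM with lithium and 77.1 ± 20.5 CPM without (SD, n = 3 each) and was not called (log2 fold change 0.66, edgeR adjusted p = 0.25). In this comparison libraries of the same number deviated together (r 0.244, 0.252 and 0.166), and with the replicate number as a block clec-3 and clec-190 were called and clec-5 was not (-1.46, edgeR adjusted p = 0.051). Leaving out libraries in turn left 0 or 1 member called here, and the share of all genes called is not given. Over these fits the log2 fold change of clec-3 was 2.30 to 3.19 (highest adjusted p = 0.14), and that of clec-5 was -1.71 to -1.36 (highest adjusted p = 0.17), both by edgeR.

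A difference between the temperatures in the response to lithium was tested as an interaction. No member of 79 and no gene of 12392 was called by edgeR (0%), with 8 members and 1261 genes having an unadjusted p below 0.05, while DESeq2 called 0 members. The response at 15 C minus that at 20 C was positive for 65 of 79 members, with a median of 0.40 beside 0.13 over all genes. Among the members named above this difference was 0.81 for clec-5 (SE 0.37) and -0.76 for clec-87 (SE 0.37), with adjusted p-values of 0.48 for each.

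On plain agar 18 of 79 members were called lower at 15 C than at 20 C and none higher (22.8%), where 9.97% of all genes were called, 7.77% lower and 2.19% higher. Of 79 members 63 had a negative log2 fold change, with a median of -0.71 beside -0.07 over all genes. This comparison shares its 20 C plain-agar libraries with the lithium comparison at 20 C, so calls in both are not independent.

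Of the called members, clec-7, clec-47 and clec-264 had the largest falls. Larger or similar values in clec-180 (-3.27) and clec-78 (-2.17) were not called, and their groups overlapped. The gene clec-7 (chromosome V, 7328392 to 7330002) had 1.93, 1.54 and 1.68 CPM at 15 C and 7.26, 12.9 and 5.41 CPM at 20 C. The 15 C libraries lay close together and below all 20 C ones, and the log2 fold change was -2.30 (SE 0.48, edgeR adjusted p = 0.028). The gene clec-47 (chromosome V, 15175759 to 15176324) had 39.4, 29.7 and 38.7 CPM at 15 C and 132, 208 and 78.5 CPM at 20 C, again apart, and the log2 fold change was -1.96 (SE 0.37, edgeR adjusted p = 0.026). The gene clec-264 was low throughout, with 1.59, 0.925 and 1.085 CPM at 15 C and 3.004, 8.155 and 2.078 CPM at 20 C, the highest in replicate 2. Its log2 fold change was -1.84, and -2.16 to -1.05 with 1 library left out.

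Members with the smallest p-values were clec-222, clec-5 and clec-54, each with an adjusted p of 0.016 by edgeR. The gene clec-222 (chromosome V, 11271351 to 11272467) had 13.3, 8.84 and 9.39 CPM at 15 C and 35.4, 42.3 and 25.2 CPM at 20 C. Its libraries did not overlap, and the log2 fold change was -1.70 (SE 0.24). The gene clec-5 had the same order, with 25.3, 29.9 and 21.3 CPM at 15 C and 70.01, 129 and 64.3 CPM at 20 C (log2 fold change -1.78, SE 0.27). For clec-54 the levels were 7.49, 6.58 and 5.48 CPM at 15 C and 19.4, 16.5 and 15.7 CPM at 20 C, a log2 fold change of -1.40 (SE 0.21). By contrast, clec-3 had 9.08, 4.73 and 2.88 CPM at 15 C and 7.045, 6.666 and 4.784 CPM at 20 C, with overlapping groups and no call.

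Of the runs with at least 2 reported members, 2 had every reported member called lower. These were clec-62 to clec-66 and the pair clec-8 and clec-4. All 4 reported members of the run clec-62 to clec-66 were called lower at 15 C. The gene clec-63, the one of the highest level per length in this experiment (chromosome II, 12895638 to 12897446), had 870, 558 and 600.4 CPM at 15 C and 1254, 1700 and 990.6 CPM at 20 C. All 15 C libraries were lower, and the log2 fold change was -0.96 (SE 0.28, adjusted p = 0.049 by edgeR). The neighbours clec-65, clec-66 and clec-62 had log2 fold changes of -1.50, -1.35 and -1.10, with adjusted p-values of 0.019, 0.036 and 0.038 by edgeR. On the same chromosome the adjoining pair clec-4 and clec-8 (12575691 to 12581113) had log2 fold changes of -1.33 and -1.12, with clec-4 at 7.30 ± 2.04 CPM at 15 C and 18.5 ± 5.64 CPM at 20 C (SD, n = 3 each).

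Of the run clec-80 to clec-85 (chromosome IV, 2823746 to 2855456) clec-83 and clec-85 were called lower, and clec-80 (0.03 on the log2 scale) and clec-84 (-0.74) were not. The gene clec-85, a target of the p38 MAP kinase PMK-1, had 57.7, 32.1 and 30.99 CPM at 15 C and 148, 102 and 56.7 CPM at 20 C. Its groups overlapped by 1 library, it shares 397 exon bases with Y54G2A.40 on the same strand, and the log2 fold change was -1.34 (SE 0.32, adjusted p = 0.034 by edgeR). The gene clec-41 had 77.1 ± 20.5 CPM at 15 C and 158 ± 19.3 CPM at 20 C (SD, n = 3 each), and its log2 fold change of -1.03 was called (adjusted p = 0.038 by edgeR). Also called lower were clec-265 at -1.51 and, named after their values were seen, clec-48 at -1.08 and clec-147 at -1.07 on the log2 scale.

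The 3 members most abundant per length did not move alike. Beside the fall of clec-63, clec-87 had 681 ± 88.3 CPM at 15 C and 451 ± 182 CPM at 20 C, with a log2 fold change of 0.59 that was not called (edgeR adjusted p = 0.11), and clec-150 had 336 ± 59.2 CPM at 15 C and 434 ± 107 CPM at 20 C (SD, n = 3 each), also not called. The gene clec-149 had 4.22 ± 1.08 CPM at 15 C and 6.03 ± 0.434 CPM at 20 C (SD, n = 3 each) and was not called.

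Calls in this comparison depended on single libraries. Without 20 C replicate 2, 4 of the 18 were called: clec-5, clec-222, clec-65 and clec-54. The number called was 10 without 15 C replicate 1, and 0 without 15 C replicate 2 or without 15 C replicate 3. The share of all genes called in these fits is not given here, so the changed counts are not read as particular to the members. Over the 6 fits with 1 library left out, the log2 fold change was -1.95 to -1.40 for clec-5 (highest adjusted p = 0.15) and -1.17 to -0.73 for clec-63 (highest adjusted p = 0.19), by edgeR.

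With lithium on both sides, 15 C against 20 C gave 0 called members and 0 called genes in edgeR (0%), with 26 of 79 members and 1445 genes having an unadjusted p below 0.05. DESeq2 called 5 members there, with 0.952% of the genes it gave an adjusted p. These were clec-10 higher, and clec-4, clec-65, clec-265 and clec-67 lower. For the 18 members lowered on plain agar, the values under lithium had the same sign. None of the 18 was called by edgeR, and of them clec-4, clec-65 and clec-265 were called by DESeq2. As examples, clec-5 had 9.04 ± 1.61 CPM at 15 C and 17.9 ± 2.13 CPM at 20 C with lithium (log2 fold change -0.98, SE 0.27), and clec-63 had 860 ± 234 CPM at 15 C and 1610 ± 440 CPM at 20 C with lithium, at -0.90 on the log2 scale (SE 0.28; SD of the levels, n = 3 each). The gene clec-67 had 5.30 ± 1.30 CPM at 15 C and 19.6 ± 7.94 CPM at 20 C with lithium, both as mean and SD of 3 libraries, and its log2 fold change of -1.88 was not called (edgeR adjusted p = 0.36).

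**Figure D3:**
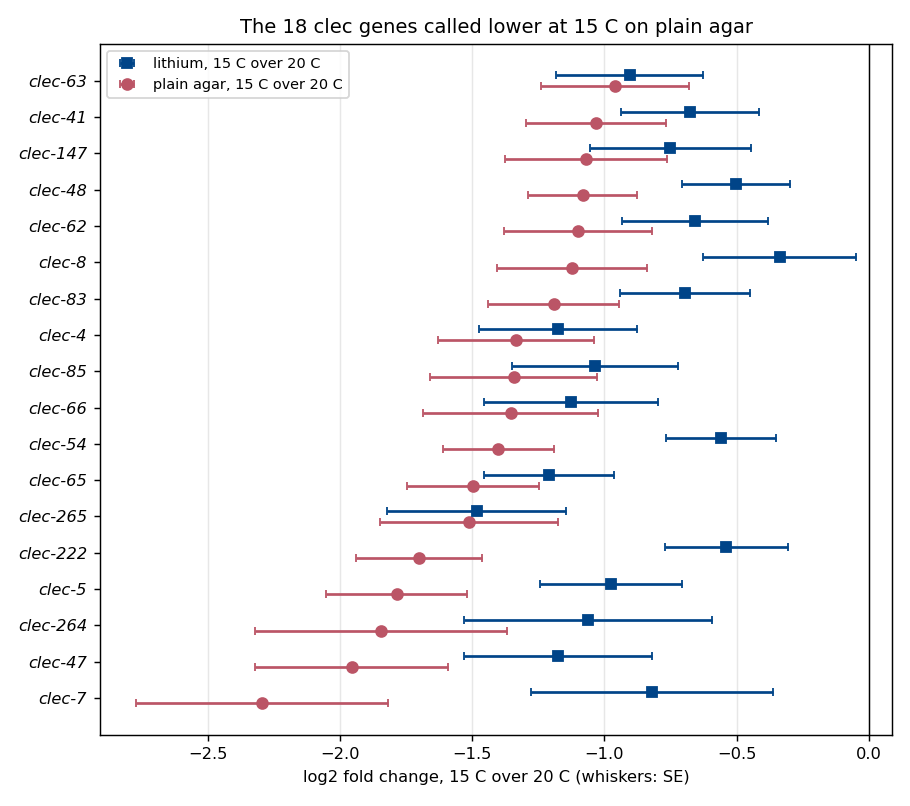
Log2 fold change of 15 C over 20 C with its SE for the 18 members called lower at 15 C on plain agar, in lithium-treated worms (blue squares) and on plain agar (red circles). All 36 values lie below 0, from clec-7 at -2.30 to clec-63 at -0.96 on plain agar, and none of the lithium values was called by edgeR.

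Defence genes outside the family were also called lower at 15 C. A list of 58 such genes was chosen with earlier results of these data known. Fits with 1 library left out were not followed for it. At 15 C on plain agar 46 of the 58 were tested, with a median log2 fold change of -1.07. Of these, 19 were called lower and none higher (41.3%, beside 7.77% of all genes lower). They include 6 lysozyme genes of the lys family (lys-3 at -3.44, lys-2 at -1.87 and lys-1 at -1.21), 4 galectins (lec-8 to lec-11, from -2.16 to -0.81) and 3 saposin-like antimicrobial genes of the spp family (spp-2 at -1.80). Of 42 regulators of defence signalling, all tested, 3 were called lower, or 7.14%, near the share of all genes: the MAP kinase phosphatase vhp-1 (-1.74), the nuclear receptor nhr-8 (-1.53) and the JNK-like kinase kgb-1 (-1.13). Among 13 intestine markers 3 were called lower, namely mtl-2, cpr-1 and cpr-6, and the summed intestine level was 5807 to 8045 CPM at 15 C and 8650 to 10437 CPM at 20 C. Germline and oocyte markers had 10152 to 10303 CPM at 15 C and 3883 to 8652 CPM at 20 C, with none of 14 called. Of 12 neuron markers tested, unc-64 was called lower and 0 had a positive log2 fold change (median -0.69). The sperm marker spe-41 was called higher. Of 6 sperm markers tested 2 had a positive log2 fold change, and their median was -0.33. The part of these markers in the clec values was not tested. With lithium at 20 C the same list had 4 genes called higher (dod-24 at 2.05, fmo-2 at 2.04, K08D8.5 at 1.19 and irg-3 at 0.97) and 2 lower (the caenacin cnc-2 at -1.75 and spp-18 at -0.88), in all 6 of 46, a share near the 12.2% of all genes called, and the kinase akt-1 was the 1 regulator called, at 0.57. With lithium at 15 C K08D8.5 was called higher (1.64) and the list's median was 0.75, with 43 of 46 positive. The intestine marker mtl-2 was called higher too (1.48), as 1 of 13 tested, of which 10 were positive with a median of 0.10.

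On ice, edgeR with the filter on low counts and all 9 sums called no gene for temperature. For 15 C against 20 C, 0 of 125 members and 0 of 15412 genes were called (0%), with 34 members and 1945 genes at an unadjusted p under 0.05. The median of the members was 0.94, with 96 of 125 positive, beside 0.14 over all genes. DESeq2 called 9 members, 7 higher and 2 lower, with 1.07% of the genes it gave an adjusted p. The 2 lower ones were clec-4 and clec-265, both also called lower at 15 C on plain agar without ice.

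The members' median at 15 C on ice depended on the sums that stood apart. In place of 0.94 it was 0.72 without 15 C letter B, 0.75 without 15 C letter H, and 0.03 without 15 C letters B and H and shifted letter H (66 of 130 members positive), where 15 C keeps 1 sum that is assumed to vary like the others. In each of these fits edgeR called 0 members. DESeq2 called 2 members without letter B (clec-73 and clec-123, beside 0.248% of genes), 2 without letter H (clec-9 and clec-153, beside 0.455%) and 3 without all 3 sums (clec-73, clec-79 and clec-123, beside 1.57%). The members clec-4 and clec-265 were in none of these. Without shifted letter H alone, the median was 0.96 (97 of 126 positive) beside 0.17 over all genes, and edgeR called 0 members. DESeq2 then called 16 members higher and 2 lower, with clec-4 and clec-265 among those called, beside 2.69% of genes.

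In these sums clec-4 had 2.93, 3.03 and 3.15 CPM at 15 C and 11.13, 4.70 and 19.8 CPM at 20 C. The 15 C sums were close together and below every 20 C sum, and the log2 fold change was -1.97 (SE 0.57, edgeR adjusted p = 0.39). Shifted worms had 4.52, 2.55 and 3.45 CPM of clec-4, also below the 20 C sums. The gene clec-265, named after its values were seen, had 21.1, 58.9 and 30.8 CPM at 15 C and 188, 58.6 and 242 CPM at 20 C, with an overlap of 1 sum. The members highest per length did not differ beyond their spread: clec-87 had 3140 ± 1478 CPM at 15 C and 4312 ± 1643 CPM at 20 C, and clec-88 had 1142 ± 669 CPM at 15 C and 1605 ± 671 CPM at 20 C (SD, n = 3 each). The gene clec-3 had 16.8, 9.73 and 25.2 CPM at 15 C and 3.17, 3.02 and 18.98 CPM at 20 C, with an overlap through 1 sum at 20 C. Neither clec-5, at 64.7 ± 19.5 CPM at 15 C and 104 ± 66.8 CPM at 20 C, nor clec-41, at 94.4 ± 6.94 CPM at 15 C and 185 ± 133 CPM at 20 C (SD, n = 3 each), was called. The defence gene clec-49 had 76.99 ± 32.2 CPM at 15 C and 41.6 ± 20.9 CPM at 20 C (SD, n = 3 each), and it was not called either.

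Much of the spread on ice lay between letters within a regime. In 29 of the 89 reported members the sums of 15 C letter B, 15 C letter H and shifted letter H were all above the other 6 sums (32.6%, where 18.7% of all genes tested had this order). The gene clec-63 is an example, with 872, 751 and 986 CPM in those sums, and 231 CPM in 15 C letter G, 202 and 268 CPM in shifted letters C and D, and 280 to 331 CPM in the 3 sums at 20 C. The highest 3 sums thus came from 2 regimes. The 89 members had to reach a mean of 1 CPM and the genes tested did not, so the 2 shares are not like for like. Some of the 29, such as clec-17, were above 1 CPM only in these 3 sums. The gene clec-60, induced by Staphylococcus aureus infection, had 13.3 CPM in shifted letter H and 8.69 CPM in 15 C letter H, and 0 to 0.796 CPM in the other 7 sums. In letter H, 83 of the 89 members differed by less than 1 on the log2(CPM + 1) scale between shifted and 15 C worms. Adding 1 shrinks the differences of members near 1 CPM. No share over all genes or for another pair of sums is given, so this count is not read as particular to letter H or to the members. The same 3 sums had the highest muscle markers, as given above, and the lowest germline and oocyte markers, 2563 to 4505 CPM beside 8421 to 13540 CPM in the others. The part of these differences in the clec values was not tested.

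Against 15 C, shifted worms had 0 of 125 members and 0 of 15412 genes called in edgeR (0%), with 7 members and 512 genes having an unadjusted p below 0.05, while DESeq2 called 0 members. The median of the members was -0.07 beside -0.09 over all genes. Without shifted letter H it was -0.44 (42 of 126 positive) beside -0.10. DESeq2 then called 7 members higher and 3 lower, beside 3.82% of genes. Without 15 C letter H the median was 0.16 beside -0.13, and without 15 C letter B 0.08 beside -0.02. DESeq2 called 0 members in both. In each of these fits edgeR called 0 members. Without all 3 sums, which leaves 1 sum at 15 C, the median was 0.20 beside -0.01. Against 20 C, shifted worms also had 0 members and 0 genes called in edgeR (0%), with 35 members and 1855 genes at an unadjusted p under 0.05. The lowest adjusted p of a member was 0.093, and the median was 0.82 (90 of 125 positive) beside 0.04 over all genes. Without shifted letter H the median was 0.13 (70 of 126 positive), beside -0.05 over all genes. DESeq2 called 19 members, 18 higher and 1 lower, with 5.73% of the genes it gave an adjusted p. In edgeR without the shifted sum of letter H, 9 of 126 members were called higher, with 3.45% of genes called.

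Those 9 were clec-123, clec-73, clec-151, clec-79, clec-153, clec-119 and clec-169 of the reported members, and clec-117 and clec-175 below 1 CPM. They were chosen for naming after their values were seen. The gene clec-73 (chromosome IV, 3954030 to 3956195) had 13.8, 35.6 and 1.58 CPM in shifted letters C, D and H, 0.419, 3.94 and 1.15 CPM at 15 C and 0.158, 0.0480 and 0.111 CPM at 20 C. Letters C and D stood above all other sums, and shifted letter H lay within the range at 15 C. Over all 3 shifted sums the log2 fold change against 20 C was 7.26 (SE 1.34, edgeR adjusted p = 0.093). In the same run, clec-79 (3973349 to 3975721) had 13.8, 26.5 and 1.04 CPM in shifted worms, and 0.396, 0.0960 and 0.155 CPM at 20 C. The reported members between them had another order. In shifted letters C, D and H clec-75 had 1.15, 1.22 and 7.06 CPM and clec-76 had 2.45, 2.51 and 19.8 CPM. On another chromosome, clec-123 (chromosome II, 3114234 to 3116762) had 11.2, 20.35 and 0.909 CPM in shifted worms and no sum above 0.0396 CPM at 20 C. In clec-151 and clec-153, neighbours on chromosome III, shifted letters D and C were again the highest sums, and clec-153 had 2.03, 3.18 and 0.987 CPM in shifted worms.

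In all, 8 of the 89 reported members had their 2 highest sums in shifted letters C and D (8.99%, where 6.88% of all genes tested did). Here too only the members had to reach a mean of 1 CPM, and clec-151 was above 1 CPM only in these 2 sums. The 14 sperm markers, among them major sperm proteins, together had 155 and 349 CPM in shifted letters C and D and 23.2 CPM in shifted letter H, 18.2 to 60.6 CPM at 15 C and 8.65 to 24.5 CPM at 20 C. In the sums at 20 C up to 6 of the 14 were at 0, and in the shifted sums none. The part of sperm RNA in these clec values was not tested.

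**Figure D4:**
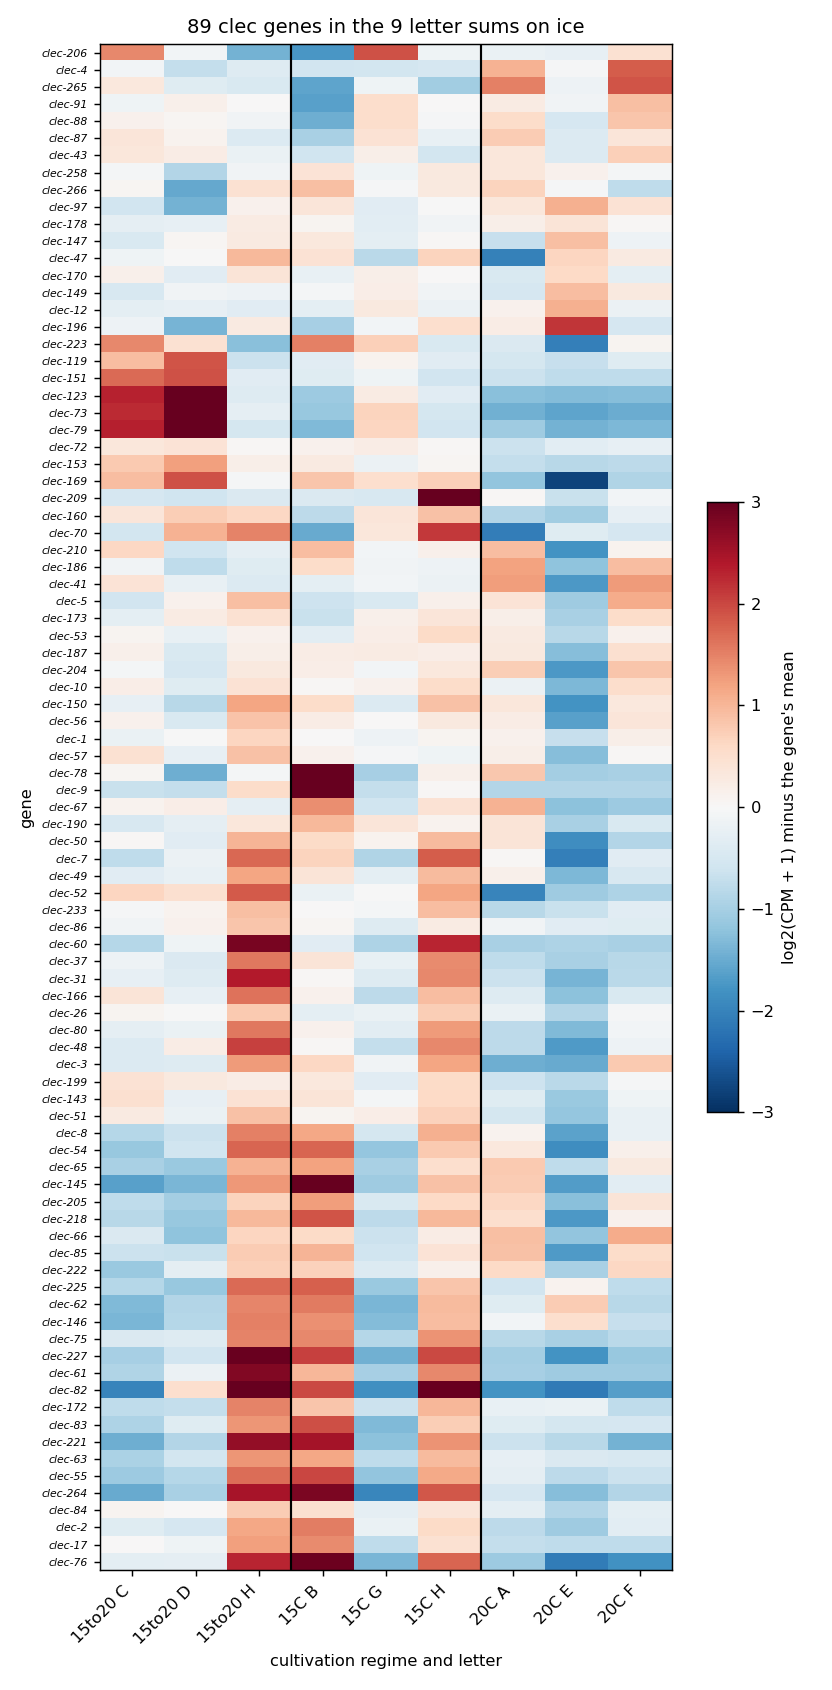
Each of the 89 members reported on ice is a row and each letter sum a column, with shifted worms (15to20) on the left, then 15 C and 20 C; colour is log2(CPM + 1) minus the gene's mean over the 9 sums, with values beyond 3 shown at the end of the scale, and rows are ordered by likeness. The 29 members with 15 C letters B and H and shifted letter H above the other 6 sums lie mostly in the lower part, and clec-73, clec-79, clec-123 and clec-151 stand out in shifted letters C and D.

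**Figure D5:**
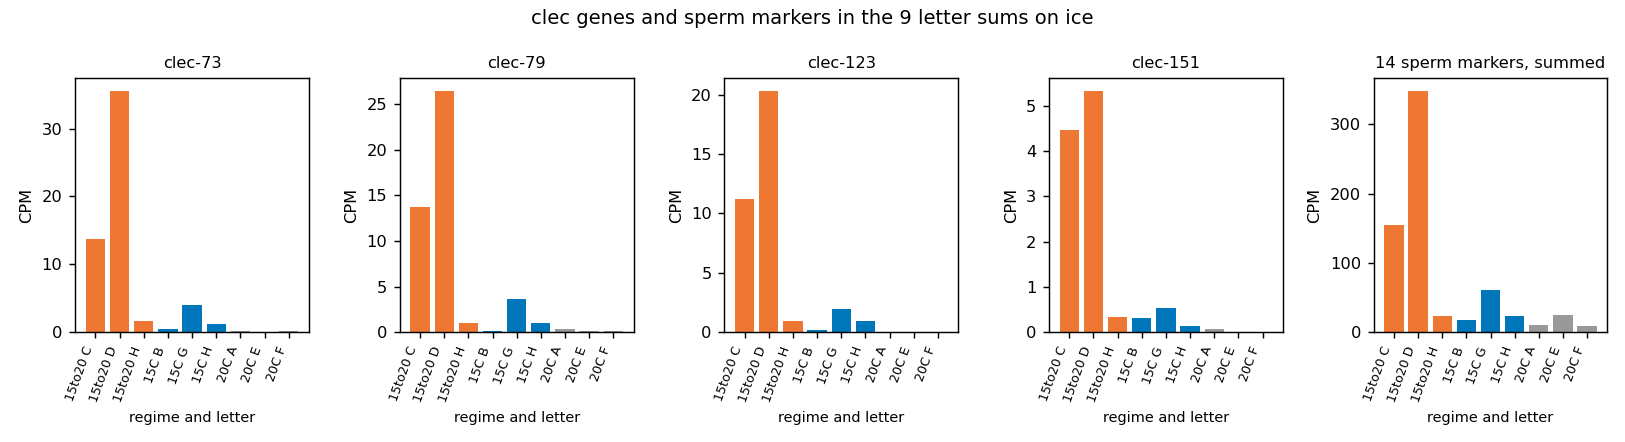
CPM of clec-73, clec-79, clec-123 and clec-151 and the summed CPM of 14 sperm markers in the 9 letter sums (shifted worms orange, 15 C blue, 20 C grey). All 5 panels are highest in shifted letter D, with clec-73 at 35.6 and the markers at 349 CPM, and next highest in shifted letter C.

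A single sum set some other large differences. The gene clec-9 had no count at 20 C, and 31.5, 0.130 and 0.879 CPM at 15 C, nearly all of it in letter B. Against a floor of 3 counts over the 20 C group it was at least 329-fold higher at 15 C and at least 20.0-fold higher in shifted worms, which had 0.165, 0.124 and 1.69 CPM. The gene clec-78 likewise had 31.3 CPM in 15 C letter B, and 0.464 and 2.23 CPM in letters G and H. Of the 2 genes named clec-209, the 1 reported had 13.1 CPM in 15 C letter H and no more than 0.634 CPM in any other sum. It came from 1 of that letter's libraries, with 30.7 CPM in conditioned and 0.169 CPM in naive worms. These 3 were named after their values were seen.

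Training was compared as conditioned against naive worms, in the 18 libraries on ice. Over the 3 regimes edgeR called 0 of 116 members and 0 of 14864 genes (0%), with 0 members and 32 genes at an unadjusted p under 0.05. Within a regime it also called 0 members and 0 genes (0% each), with 2 members at an unadjusted p under 0.05 at 20 C, 1 at 15 C and 0 in shifted worms. DESeq2 called 0 members in each of these. The median log2 fold change of the members was -0.02, beside 0.02 over all genes. A test for a training effect that differs between the regimes called 0 members, with 3 at an unadjusted p under 0.05.

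No difference with training was called in the most abundant members. In letter A at 20 C clec-87 had 6112 CPM in conditioned worms and 6608 CPM in naive worms, in letter E 2675 and 2446 CPM, and in letter F 4495 and 4267 CPM, each conditioned first. The largest difference within a pair was in 15 C letter H, with 2518 CPM in conditioned and 3500 CPM in naive worms. In all 6 pairs at 15 C and in shifted worms, with letter H in both regimes, the conditioned value was the lower. The letters spread further apart than the pairs within them. Over the 3 regimes its log2 fold change was -0.10 (SE 0.31), that of clec-63 was -0.20 (SE 0.43), that of clec-3 -0.24 (SE 0.51) and that of clec-5 -0.08 (SE 0.36).

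Within letters, 2 of the 89 reported members had the same direction in all 9 pairs, clec-57 and clec-223, where 0.659% of all genes tested did. Both were named after their values were seen. The gene clec-57 was higher in conditioned worms by 0.0786 to 0.387 on the log2 scale. The gene clec-223 was higher by 0.211 to 2.02, with 42.8 CPM in conditioned and 10.5 CPM in naive worms of 20 C letter F, and 5.67 CPM in conditioned and 4.52 CPM in naive worms of 20 C letter E. No member had a mean ratio over the 9 letters of more than 1 on the log2 scale, and the median size of that ratio was 0.103 over the members and 0.130 over all genes.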

How the data were processed

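The authors deposited 1 table of unnormalized gene counts for each experiment. The submitters' processing notes name build ce11 and the programs HISAT2, HTSeq, cutadapt, FastQC and DESeq2, without versions. A directional kit was used for lithium libraries, per the labels' protocols, and Nextera XT for those on ice, whose cDNA came from 1 of 2 SMART-Seq kits, per the series' design text, which does not say which kit served which library. The strand setting of the counting is not given in the sources used here. Of the members reported in either experiment 15 share exon bases with a protein-coding gene on the opposite strand and 5 on the same strand, so their reads may not be told apart.

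The members and gene lists were chosen with earlier results of these data known. Symbols, positions and exon lengths come from the Ensembl annotation of release 115. The fits used edgeR 4.0.16 under R 4.3.3, with TMM scaling, filterByExpr and the robust quasi-likelihood test, two-sided, with Benjamini-Hochberg adjustment over all genes of a fit and a threshold of 0.05. The lithium fit had 12 libraries in 4 groups (12392 genes, biological coefficient of variation 0.294). For temperature on ice the conditioned and naive counts of a letter were added (9 sums, 15412 genes, 0.645), and training was fitted in 18 libraries (14864 genes, 0.660). The conditioned and naive libraries of a letter deviated together (9 pairs, r 0.471 to 0.897), so they pair, and a fit with the letter as a block is given in the closing section. Lithium libraries of the same number deviated together in every pair for lithium against plain agar at 15 C (r 0.166 to 0.252) and for 15 C against 20 C with lithium (r 0.195 to 0.265), but not in the other lithium comparisons. The fitting was tested on simulated data.

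For each comparison, members named were up to 8 higher and 8 lower called ones, non-overlapping groups first, then by size of change. Always named were clec-3 and clec-5, because lithium changed them in earlier results of these data, so their lithium values here are no separate support. The 3 of highest level per length were also always named. So were clec-4, clec-39, clec-41, clec-42, clec-49, clec-60, clec-67, clec-85 and clec-149 where reported. Alternatives were RLE size factors, no filter, DESeq2 1.42.0, a replicate block, only the libraries compared, conditioned or naive libraries alone, and leaving out each library; leaving out number 2 of all lithium groups, leaving out letter H and leaving out the sums on ice that stand apart were added after seeing the data. Sequence features were not used here.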

Additional observations from a re-analysis of the deposited data

How the results depend on the processing

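No called member that was followed reversed under any alternative. The counts below are of members, and most stand without the share of all genes called in the same fit. A change in a count is therefore not read as particular to the members. With lithium at 20 C 14 members were called: RLE size factors gave 14, no filter 10 and DESeq2 21, a fit of the 6 libraries compared gave 0, and a fit without number 2 of all groups, added after seeing the data, gave 1. Leaving out 1 library gave 1 to 16. With lithium at 15 C 3 were called, against 5 with no filter, 8 by DESeq2, 8 from the 6 libraries compared, 0 without number 2, and 0 to 1 with 1 library left out. At 15 C on plain agar 18 were called, against 17 with RLE, 15 with no filter, 24 by DESeq2, 0 from the 6 libraries compared, 0 without number 2, and 0 to 26 with 1 library left out. With lithium at both temperatures the count of 0 became 1 with no filter and 5 by DESeq2.

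For 15 C against 20 C on ice the count of 0 became 28 with no filter and 9 by DESeq2 (beside 1.07% of genes). For shifted worms it became 7 against 15 C with no filter, and against 20 C it became 24 with no filter, 19 by DESeq2 and 8 without letter H, which was added after seeing the data, with 0 to 9 when 1 sum was left out. Without the 3 sums that stand apart, also added after seeing the data, it was 8 in edgeR and 12 by DESeq2, and for 15 C against 20 C DESeq2 gave 3, with 2 without 15 C letter B or without 15 C letter H. Leaving out shifted letter H in DESeq2, also added after seeing the data, gave 16 members higher and 2 lower for 15 C against 20 C (beside 2.69% of genes). For shifted worms against 15 C it gave 7 higher and 3 lower (beside 3.82%). Training at 15 C gave 1 member with no filter. The interaction and the other comparisons of training gave 0 throughout.

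Over all 4 lithium groups replicates of the same number did not pair (r of their deviations -0.316 to 0.346, 13 of 18 above 0.1, 7 of 12 libraries closest to their own number), though they did within 2 comparisons. With the replicate number as a block 16 members were called with lithium at 20 C, 2 with lithium at 15 C, 23 at 15 C on plain agar, and 0 for 15 C with lithium and in the interaction. With the letter as a block training gave 0.

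No library had fewer than 9873554 counts. The biological coefficient of variation was 0.294 in the lithium fit and 0.645 in the letter sums. Which SMART-Seq kit served which ice library is not stated, so a kit difference between letters cannot be told apart from the regimes.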
